A study of Mus musculus with 14 samples.

Results

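The genes described here are 9 genes of the Fanconi anemia and homologous recombination pathways, Fancd2, Fanca, Fanci, Brca1, Brca2, Blm, Palb2, Rad54l and Xrcc2. They were taken by symbol from 2 tables of read counts, in which each of the 9 was found among 41053 gene rows. RNA had been measured in 14 libraries from spleens of C57BL/6 mice. The germinal center (GC) B cells comprise 4 TET2 Knock-Out libraries (KO, numbered 2 to 5) and 3 TET2 Wild-Type libraries (WT, numbered 1, 3 and 4). A further 7 libraries are labelled as B cells of the spleen, and the series design calls them lymphoma cells: 2 are TET2 Knock-Down (shTet2, numbered 1 and 2) and 5 are TET2 Wild-Type controls (numbered 1 to 5). TET2 is an enzyme that starts the removal of methyl groups from cytosines in DNA, and the series compares libraries labelled by its genotype. No age, driver of the deletion, purification of the GC B cells or origin of the lymphoma is given in the sources used here. The labels do not say whether libraries of a group came from separate animals, so every p-value reflects only how these libraries vary, and that variation may be technical.

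The Fanconi anemia pathway removes crosslinks between the strands of DNA. A core complex that contains FANCA attaches ubiquitin to FANCD2 and FANCI, which then clamp onto DNA as a pair and call in nucleases. Homologous recombination repairs the resulting breaks from the sister chromatid, so both pathways work in cells that copy their DNA: BRCA1 with BARD1 acts at broken ends, PALB2 joins BRCA1 to BRCA2, and BRCA2 prepares the exposed strand to search for its match. XRCC2 assists at that step, the motor protein RAD54L helps the strand invade its match, and the helicase BLM takes apart joined DNA molecules. GC B cells divide fast while their antibody genes are cut and mutated, and they are known to depend on such repair.

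Total counts were 27191862 to 30434184 in the GC B-cell libraries and 6691167 to 18598386 in the lymphoma libraries. In the lymphoma libraries 43.5% to 80.6% of the counts fell on 11 rows taken to hold ribosomal or other structural RNA, against 0.355% to 1.24% in the GC B-cell libraries. That share was 54.8% to 80.6% in the controls and 43.5% and 52.5% in the shTet2 libraries, without overlap. Control replicate 2 stood apart, with 80.6% on those rows and 1532253 counts outside them. Single members held 482 to 3715 reads in the GC B-cell libraries and 10 to 384 in the lymphoma libraries, so the lymphoma values carry the larger counting error. The B-cell genes Cd79a, Cd79b, Ms4a1 and Pax5 were high in all 4 groups. Genes that mark GC B cells were low in the lymphoma libraries: S1pr2 averaged 298 CPM (counts normalised to library size) in WT GC B cells, 5.31 CPM in control lymphoma cells and 37.7 CPM in shTet2 cells, and Rgs13 144, 2.58 and 4.72 CPM. Bcl6 differed less, at 259, 173.8 and 174.5 CPM. Mef2b was near 0 in all 4 groups. Tet2 itself was not called in the KO or the knock-down cells, with a log2 fold change of 0.04 in the KO cells (edgeR adjusted p = 0.909) and -0.21 in the shTet2 cells (adjusted p = 0.295). Which exons the KO lacks is not given, so counts over the whole gene are no check of that label.

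On GRCm38, as the count tables give it, the genes span chromosome 6 from 113531682 to 113597017 (Fancd2, plus strand), chromosome 8 from 123268300 to 123318576 (Fanca, minus), chromosome 7 from 79391929 to 79450265 (Fanci, plus) and chromosome 11 from 101488764 to 101551955 (Brca1, minus). Brca2 spans chromosome 5 from 150522630 to 150569746 (plus), Blm chromosome 7 from 80454993 to 80535119 (minus), Palb2 chromosome 7 from 122107262 to 122132946 (minus), Rad54l chromosome 4 from 116094264 to 116123690 (minus) and Xrcc2 chromosome 5 from 25689812 to 25705825 (minus). Counting used exons without a strand option, per the file headers, and 4 of the 9 genes share exon bases with a gene on the other strand. Rad54l shares 1184 bases (15.4% of its exon bases) with Lrrc41, Fanci 856 (14.8%) with Polg, Fanca 652 (7.68%) with Zfp276 and Fancd2 257 (3.24%) with Fancd2os. Reads that touch such bases cannot be assigned by strand in these counts, and how many they are was not measured. The exons of Brca1, Brca2, Blm, Palb2 and Xrcc2 share no bases with another gene.

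RefSeq promoter sequences (GRCm38.p6) were at hand for 7 of the 9 genes, as windows of 300 bases from 250 before to 50 after the start; Fancd2 and Xrcc2 were not matched. Of those, 3 are shown, since they include a gene called between the lymphoma groups (Brca1), a gene among the lowest in lymphoma cells against GC B cells (Rad54l) and the gene with the smallest such difference (Brca2). Each runs 5′ to 3′ in the direction of the gene and ends at the base before the start. The Brca1 and Rad54l stretches end 193 and 149 bases away, where an annotated exon of a neighbour begins (Nbr1 and Pomgnt1). Capitals mark a match to one of the searched motifs, on either strand.
Brca1, chr11:101551956-101552148, minus strand: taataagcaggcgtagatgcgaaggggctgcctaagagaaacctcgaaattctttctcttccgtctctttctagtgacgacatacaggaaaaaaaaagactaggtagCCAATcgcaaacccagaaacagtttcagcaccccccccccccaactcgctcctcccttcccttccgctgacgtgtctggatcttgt
Rad54l, chr4:116123691-116123839, minus strand: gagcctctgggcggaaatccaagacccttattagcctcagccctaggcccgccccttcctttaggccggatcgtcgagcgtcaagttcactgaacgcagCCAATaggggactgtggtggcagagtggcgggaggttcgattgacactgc
Brca2, chr5:150522371-150522620, plus strand: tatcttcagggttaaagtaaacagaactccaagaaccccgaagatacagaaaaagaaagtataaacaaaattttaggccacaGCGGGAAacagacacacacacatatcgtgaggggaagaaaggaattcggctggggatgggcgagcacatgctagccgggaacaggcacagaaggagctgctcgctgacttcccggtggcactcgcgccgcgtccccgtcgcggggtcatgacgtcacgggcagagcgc
The motifs searched, known from promoters of cell cycle genes, were the CCAAT box, the cell cycle homology element (TTTGAA, or instead TTCGAA) and an E2F-type core (TTCCCGC, or alternatively the form TTCGCGC, or alternatively the form TTGCCGC, or alternatively the form TTGGCGC). No motif contains another. The capitals in Brca1 and Rad54l are CCAAT boxes that begin 86 and 50 bases before the start, and those in Brca2 are an E2F-type match on the reverse strand, 168 bases before it. Over the 300 bases, 5 of the 7 genes held a CCAAT box (Fanca, Brca1, Blm, Palb2 and Rad54l), against 37.9% of 27025 promoters. An E2F-type core lay in 4 of the 7 (Fanci, Brca1, Brca2 and Blm), against 9.69% of promoters, and those of Fanci and Brca1 lay 19 and 22 bases into the transcript. The cell cycle homology element was in 0 of the 7, against 19.4% of promoters. A match is a string of letters and not a measured binding site.

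In GC B cells the most abundant transcript per length was that of Brca1, and the least abundant that of Xrcc2. Divided by exon length, WT cells held 7.50 ± 1.07 CPM per kb (SD, n = 3) of Brca1, then 6.16 of Blm, 5.91 of Rad54l, 5.40 of Fanci, 4.998 of Fancd2, 4.26 of Fanca, 2.91 of Brca2, 2.51 of Palb2 and 2.31 of Xrcc2. Libraries of neighbours in that order overlapped from Blm to Fancd2 and from Brca2 to Xrcc2, while those of Brca1 lay above Blm and those of Fanca lay below Fancd2 and above Brca2. With the exon bases shared with neighbours left out of the length, Rad54l (6.98) and Fanci (6.34) came before Blm. In control lymphoma cells the order differed: Blm led with 2.84 ± 0.143 CPM per kb (SD, n = 5), clear of Brca2 with 2.06 ± 0.311, and Brca1 came after them with 1.57 ± 0.351. Fancd2, the fifth in WT GC B cells, was the last at 0.591 ± 0.168, and every neighbouring pair from Brca2 to Fancd2 overlapped. In shTet2 cells Brca1 was first again with 3.66 ± 1.51 CPM per kb (SD, n = 2), overlapping Blm with 3.44 ± 0.594.

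**Figure D1:**
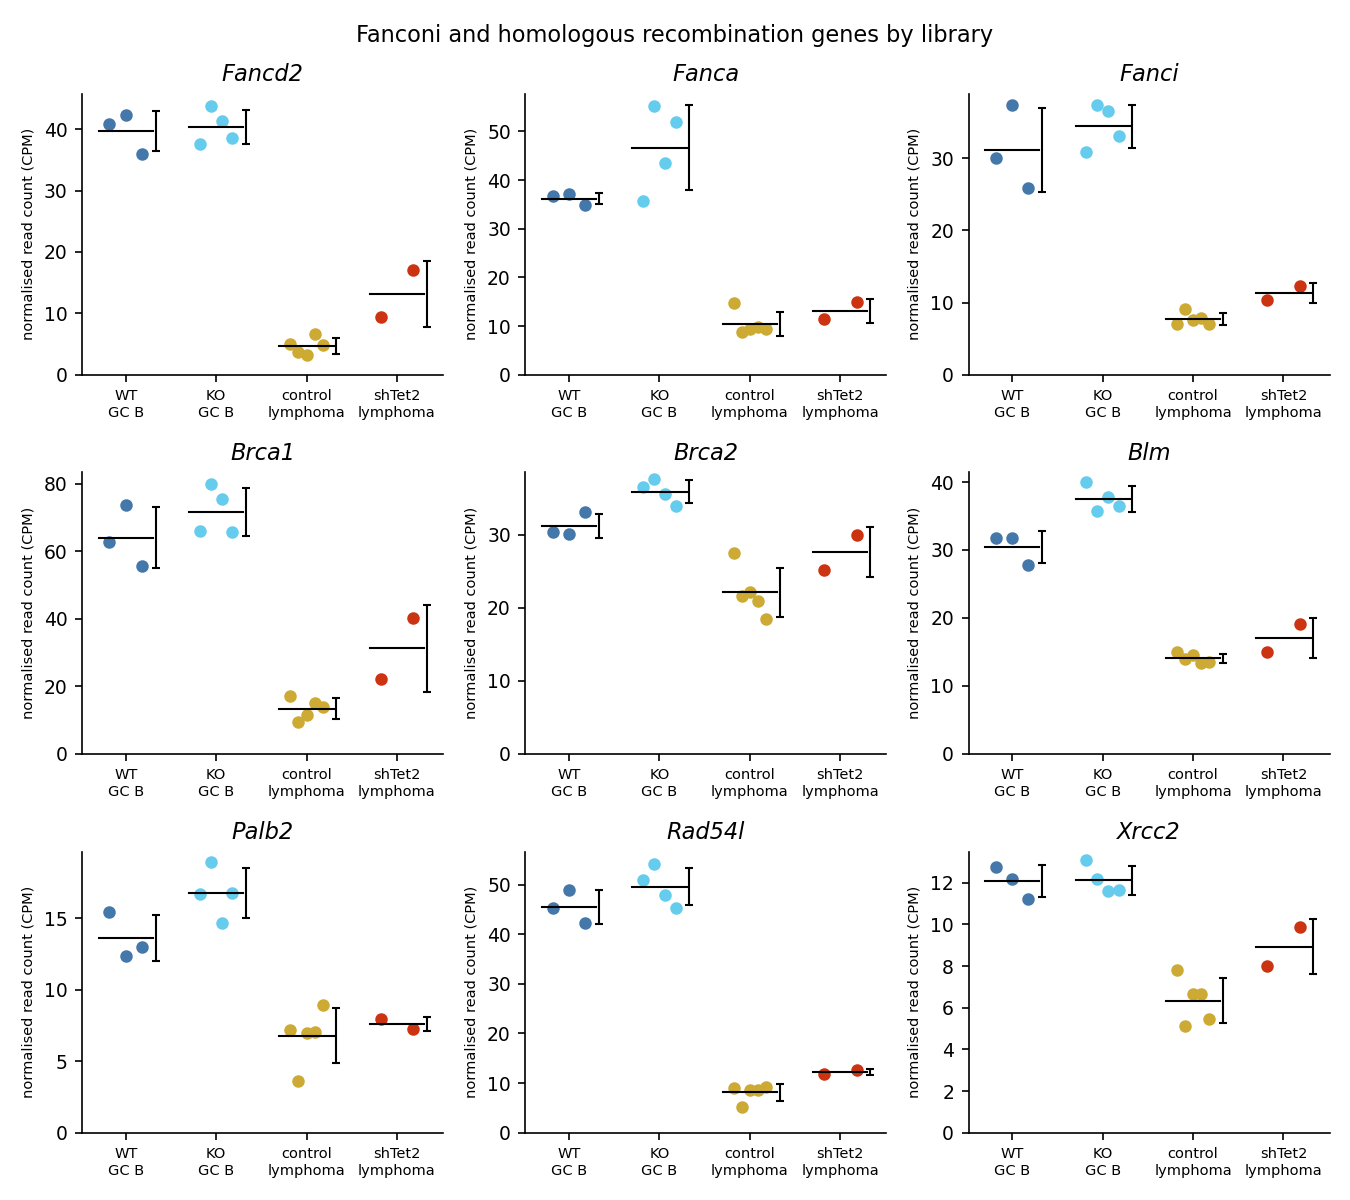
Normalised read counts (CPM, linear axis from 0) of the 9 genes, with 1 point per library, a line at the group mean and a bar of ±1 SD (n = 3 WT, 4 KO, 5 control, 2 shTet2). In every panel the 5 control lymphoma libraries lie below the 3 WT GC B-cell libraries, as they do for 38.5% of all genes tested. For Fancd2, Brca1, Fanci, Rad54l and Xrcc2 the 2 shTet2 libraries lie above all 5 controls, as they do for 12.5% of all genes tested.

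Set against WT GC B cells, control lymphoma cells held less RNA of each of the 9 genes, and the size of the difference varied widely among them. The fitted level was 0.119 times the GC level for Fancd2, 0.185 times for Rad54l, 0.212 for Brca1 and 0.244 for Fanci, whereas Brca2 stood at 0.706 times. In bulk RNA, fewer cells of a kind and less RNA per cell cannot be told apart. All 9 were called lower at an adjusted p under 0.05 (edgeR), where 40.4% of all 15441 genes tested were called lower and 40.2% higher, so the count itself is read against a background in which most genes differ. The median log2 difference of the 9 was -1.81, against -0.03 over all genes tested. Upper-quartile scaling moved the middle of all genes by 0.41 in this comparison and median-of-ratios scaling by 0.14, and the upper-quartile scaling called 7486 of 12288 genes higher against 6211 of 12456 with the main scaling. Differences between members are free of that shift, but they may hold gene-specific effects of library preparation, which were not tested. Cell type, count table, depth and the share of structural RNA change together in this comparison and cannot be told apart.

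Fancd2, the ubiquitin target of the core complex, was at 40.8, 42.2 and 36.0 CPM in the WT libraries and at 5.07, 3.65, 3.28, 6.66 and 4.81 CPM in control replicates 1 to 5, a log2 difference of -3.07 (SE 0.18, edgeR adjusted p = 1.30e-11). Its partner Fanci was at 30.1, 37.4 and 25.9 CPM against 7.02, 9.13, 7.55, 7.83 and 7.08 CPM (-2.03, SE 0.13). Rad54l, the motor protein of strand invasion, was at 45.3, 49.0 and 42.2 CPM against 8.98, 5.12, 8.64, 8.61 and 9.21 CPM (-2.43, SE 0.12). For these genes the highest control library lay far below the lowest WT library. Brca1 was at 62.6, 73.7 and 55.7 CPM against 17.2, 9.50, 11.5, 15.01 and 13.8 CPM (-2.24, SE 0.18), and Fanca at 36.6, 37.1 and 34.8 against 14.6, 8.77, 9.37, 9.79 and 9.35 CPM (-1.81, SE 0.15). The other 4 genes differed less. Blm was lower by 1.12 on the log2 scale (SE 0.10), Palb2 by 0.95 (SE 0.16) and Xrcc2 by 0.91 (SE 0.14). Brca2, the partner of Palb2, came closest to its GC level, at 30.3, 30.1 and 33.05 CPM in the WT libraries against 27.5, 21.6, 22.2, 20.9 and 18.4 CPM in the controls (-0.50, SE 0.11, adjusted p = 0.000253). Its call ended with upper-quartile scaling (-0.09, adjusted p = 0.421), so its lower level depends on how the libraries are scaled. The groups did not overlap for 9 of the 9 genes, nor for 38.5% of all genes tested in that direction.

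The wider pathway, 76 other genes tested from 6 lists of Fanconi, BRCA, strand invasion, end resection and junction genes, held 59 lower and 8 higher calls in the same comparison, with a median of -1.29. The helicase gene Helq was lower by 3.47 on the log2 scale, at 12.1 CPM in control lymphoma and 134 CPM in WT GC B cells. The end-trimming nuclease gene Dna2 was lower by 3.93. The higher calls were Fan1 (2.47), Ercc4 (0.45), Rev3l (0.25), Wrn (1.21), Eme2 (0.51) and the damage kinase genes Atm (2.10), Atr (1.68) and Atrip (0.34), the last being the partner of ATR. All 30 replication genes and all 24 mitosis genes tested were called lower, with medians of -3.04 and -4.25. The 24 mitosis genes summed to 3998 to 5059 CPM in the WT libraries and 209 to 441 CPM in the controls, and their part in the levels of the 9 genes was not tested. Of the NK-cell markers 8 of 8 tested, and of the T-cell markers 10 of 11, were called higher in the control lymphoma libraries, at low levels: the NK markers summed to 10.6 to 13.97 CPM there and to 1.91 to 2.28 CPM in WT GC B cells, and Cd3e stood at 1.07 against 0.0690 CPM. The remaining T-cell marker, Lck, a kinase gene and the most abundant of that list, was called lower, at 20.8 against 122 CPM, and with it the T-cell list summed to 27.5 to 59.3 CPM in the control lymphoma and 108 to 136 CPM in the WT libraries.

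In GC B cells none of the 9 genes passed the test between the libraries labelled KO and WT. Their log2 fold changes ran from -0.04 (Xrcc2, SE 0.11) to 0.32 (Fanca, SE 0.13), with a median of 0.11 against 0.01 over all genes tested, and 7 of the 9 lay above 0. The comparison asks whether loss of Tet2 alters these genes in normal GC B cells. None of the 9 was called by edgeR, where 1.92% of 13600 genes tested were called higher and 4.57% lower; DESeq2 and limma-voom called 0 too, and 2 of the 9 had an unadjusted p under 0.05 (Fanca and Blm), as had 19.9% of all genes tested. A p that misses the threshold does not show that the levels were alike.

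Fanca, of the core complex, was at 35.8, 55.3, 43.6 and 51.9 CPM in KO replicates 2 to 5 and at 36.6, 37.1 and 34.8 CPM in the WT libraries (adjusted p = 0.173). KO replicate 2 lay among the WT libraries and the other 3 KO libraries above them; without KO replicate 2 the fold change was 0.43 and was called (adjusted p = 0.0157). Blm was at 40.1, 35.8, 37.8 and 36.4 CPM in the KO libraries against 31.8, 31.8 and 27.7 CPM (0.25, SE 0.09, adjusted p = 0.105). Brca2 was at 36.6, 37.6, 35.5 and 33.9 CPM against 30.3, 30.1 and 33.05 CPM (0.15, SE 0.08, adjusted p = 0.346). For Blm and Brca2 each KO library lay above each WT library, as it did for 11.9% of all genes tested. Palb2, which joins BRCA1 to BRCA2, was at 16.7, 18.9, 14.7 and 16.8 against 15.4, 12.4 and 13.01 CPM (0.25, SE 0.12). The groups overlapped for the other 5 genes too. Fancd2 was at 37.7, 43.8, 41.4 and 38.6 CPM in the KO libraries (-0.03, SE 0.09), and Brca1 at 65.9, 79.7, 75.3 and 65.6 CPM (0.11, SE 0.10). Fanci ranged from 30.9 to 37.3 CPM in the KO libraries (0.10, SE 0.12), Rad54l from 45.4 to 54.2 CPM (0.07, SE 0.09) and Xrcc2 from 11.6 to 13.1 CPM, against 11.2 to 12.8 CPM in the WT libraries.

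Around the 9 genes, 3 of 76 wider pathway genes rose in the KO cells and 0 fell. They were Fancm, a translocase that brings the core complex to DNA (0.38, SE 0.10, 72.2 ± 7.25 against 53.5 ± 6.28 CPM), and the RecQ helicase genes Recql4 (0.35, SE 0.10) and Recql5 (0.29, SE 0.08), relatives of Blm. The median over the 76 was 0.05. None of the 30 replication or 24 mitosis genes was called by edgeR, with 3 and 1 of them at an unadjusted p under 0.05. Myeloid markers moved with the genotype: 9 of 11 tested were called lower in the KO cells, and the 15 listed summed to 28.7 to 35.4 CPM in KO and 50.4 to 65.0 CPM in WT libraries, with Mpo at 0 in the WT libraries. Of 6 T-cell markers tested 1 was called higher and 1, Lck, lower (-0.54, SE 0.10). Their part in the values above was not tested.

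In lymphoma cells the libraries labelled shTet2 held more RNA of Fancd2 and Brca1, 2.74 and 2.27 times the control level, while the other 7 genes lay 1.07 to 1.46 times above control without passing the test. All 9 fold changes were above 0, with a median of 0.46 on the log2 scale against -0.00 over all genes tested. The comparison asks how lymphoma cells labelled knock-down differ from controls. The 2 calls stand against 1.84% of 12797 genes called higher and 0.742% called lower by edgeR.

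Fancd2 was at 5.07, 3.65, 3.28, 6.66 and 4.81 CPM in control replicates 1 to 5 and at 9.40 and 17.0 CPM in shTet2 replicates 1 and 2, or 4.69 ± 1.33 (SD, n = 5) against 13.2 ± 5.38 (SD, n = 2). Both shTet2 libraries lay above the 5 controls. They differed from each other by more CPM than the controls did, though not by a larger ratio. The log2 fold change was 1.45 (SE 0.28, edgeR adjusted p = 0.0217). Brca1 was at 17.2, 9.50, 11.5, 15.01 and 13.8 CPM in the controls and at 22.1 and 40.3 CPM in the shTet2 libraries, again with both above all 5 and replicate 2 the higher (1.18, SE 0.24, adjusted p = 0.0325). Both calls were sensitive to single libraries. Without shTet2 replicate 2, which leaves 1 library in that group whose spread is then assumed from the others, Fancd2 fell short at 0.97 (adjusted p = 0.189) and Brca1 at 0.69 (adjusted p = 0.181). Without shTet2 replicate 1 both stayed called, at 1.82 and 1.55. Leaving out control replicate 1, 2 or 3 ended the call of Fancd2 (adjusted p = 0.0638, 0.0660 and 0.0602), and leaving out control replicate 2, 3, 4 or 5 ended that of Brca1 (0.0750, 0.0912, 0.0605 and 0.0712), with fold changes between 1.12 and 1.48 in those fits. With structural RNA rows left out before scaling the values were 1.47 and 1.20 and both calls held.

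The partner and downstream genes did not pass the test. Fanci was at 10.4 and 12.3 CPM in the shTet2 libraries against 7.02 to 9.13 CPM in the controls (0.55, SE 0.18, adjusted p = 0.128). Rad54l was at 11.8 and 12.6 CPM against 5.12 to 9.21 CPM (0.53, SE 0.20, adjusted p = 0.170), with the lowest control being the shallow replicate 2. Xrcc2 was at 8.01 and 9.87 CPM against 5.12 to 7.81 CPM (0.46, SE 0.21, adjusted p = 0.257). With Fancd2 and Brca1 these made 5 of 9 genes whose shTet2 libraries lay above all controls, as those of 12.5% of all genes tested did. Fitted in 1 model with the GC B-cell libraries, Fanci (0.57, edgeR adjusted p = 0.0461) and Rad54l (0.53, adjusted p = 0.0385) were called too. That model takes 1 spread per gene from both cell types, so the deeper GC B-cell libraries help set it. These extra calls are therefore no separate support. The groups overlapped for Fanca, at 11.4 and 14.9 CPM against 8.77 to 14.6 CPM (0.32, SE 0.21), and for Brca2, at 25.2 and 30.0 against 18.4 to 27.5 CPM (0.30, SE 0.15). Blm, at 14.95 and 19.1 against 13.3 to 15.03 CPM (0.26, SE 0.15), and Palb2, at 7.93 and 7.25 against 3.65 to 8.95 CPM (0.10, SE 0.25), overlapped likewise.

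**Figure D2:**
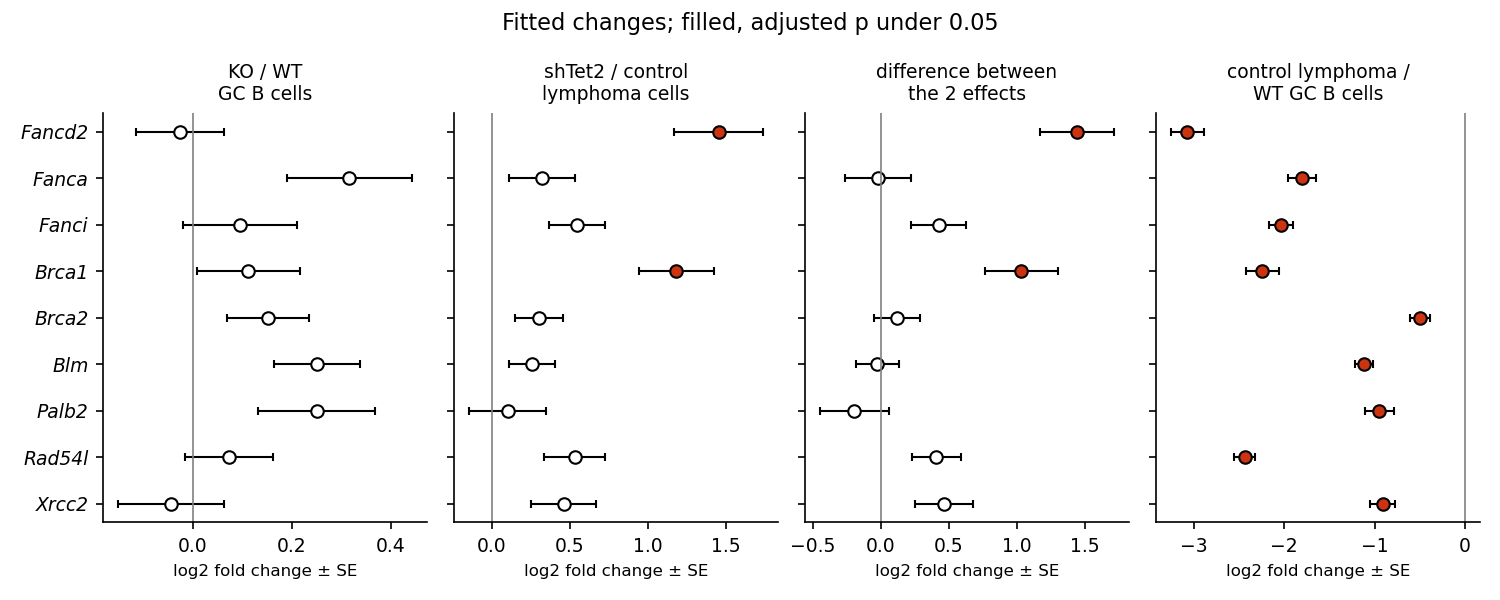
Fitted log2 fold changes of the 9 genes in 4 comparisons, with bars of ±1 SE and a separate scale on each horizontal axis; filled points passed an adjusted p of 0.05 (edgeR). No point is filled for KO against WT, Fancd2 and Brca1 are filled for shTet2 against control and for the difference between the effects, and all 9 are filled, from -3.07 to -0.50, for control lymphoma against WT GC B cells.

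Some other genes of the pathways rose in the shTet2 cells. Of 75 wider pathway genes tested, 8 rose and 0 fell, with a median of 0.20. Brip1, a helicase that binds BRCA1, rose to 15.4 ± 2.78 from 6.02 ± 0.972 CPM (1.35, SE 0.20, adjusted p = 0.00630), and Bard1, the partner of BRCA1, rose to 12.9 ± 0.969 from 7.01 ± 1.16 CPM (0.85, SE 0.19). Rad54b, a relative of Rad54l, rose to 5.39 ± 0.105 from 0.943 ± 0.711 CPM (2.39, SE 0.45), and Fignl1 by 1.16 (SE 0.27). The others were the checkpoint kinase gene Chek1 (1.26, SE 0.27), the helicase gene Helq (0.94, SE 0.16), the end-joining polymerase gene Polq (0.82, SE 0.17) and Parpbp (1.72, SE 0.36). The lists of non-homologous end joining, mismatch repair and nucleotide excision repair held 0 calls by edgeR among 13, 7 and 14 genes tested, with 0, 1 and 1 at an unadjusted p under 0.05, where 19.1% of all genes tested were.

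Cell cycle genes rose in the same libraries. Of 24 mitosis genes 20 rose, with a median of 1.80, and the smallest p-values were those of Cenpe (1.62, SE 0.15), Cenpf (1.67, SE 0.19) and Plk1 (1.98, SE 0.25); of 30 replication genes 12 rose, with a median of 0.74, among them Pola1 (0.82, SE 0.11), Pole (0.82, SE 0.15) and Lig1 (1.02, SE 0.19). Among E2F and DREAM regulators, which switch such genes, 4 of 19 rose: Foxm1 (1.78, SE 0.26), Mybl2 (1.55, SE 0.28), Tfdp1 (1.30, SE 0.27) and E2f7 (1.38, SE 0.32). By library the mitosis genes summed to 314, 209, 249, 399 and 441 CPM in control replicates 1 to 5 and to 930 and 1497 CPM in shTet2 replicates 1 and 2, so the library with the most Fancd2 and Brca1 also had the most mitotic RNA. Without shTet2 replicate 2, the counts were 14 of 24 mitosis, 1 of 30 replication and 2 of 75 wider pathway genes, and without control replicate 2 they were 18, 8 and 3. These were chosen after the data were seen. The 15 myeloid markers summed to 228 CPM in shTet2 replicate 2 against 69.9 CPM in shTet2 replicate 1 and 72.0 to 106 CPM in the controls, and 0 of 13 tested were called by edgeR (3 at an unadjusted p under 0.05). Plasma cell markers rose for 3 of 8 genes tested, with sums of 833 and 983 CPM in the shTet2 libraries and 493.3 to 640.3 CPM in the controls. The part of these cell types and of the cell cycle genes in the levels of Fancd2 and Brca1 was not tested.

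**Figure D3:**
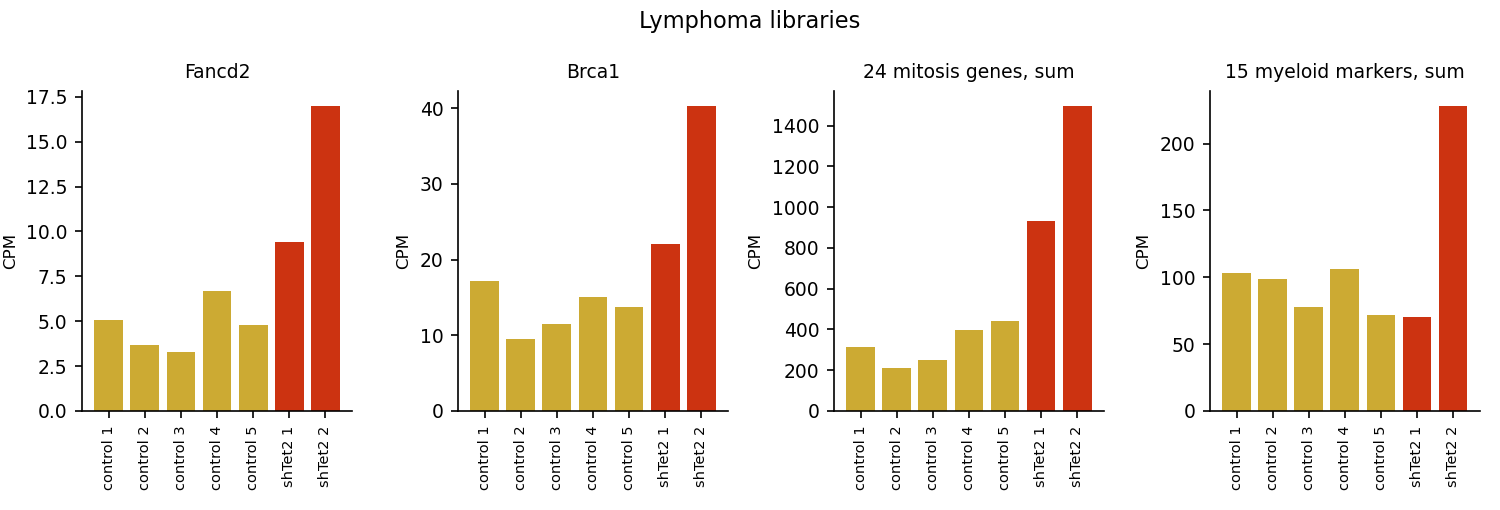
Normalised read counts (CPM, bars from 0) in the 7 lymphoma libraries, for Fancd2, Brca1, the sum of 24 mitosis genes and the sum of 15 myeloid markers; each bar is 1 library. Both shTet2 libraries exceed the 5 controls for the first 3, and shTet2 replicate 2 is the highest in all 4, with 228 CPM of myeloid markers.

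**Figure D4:**
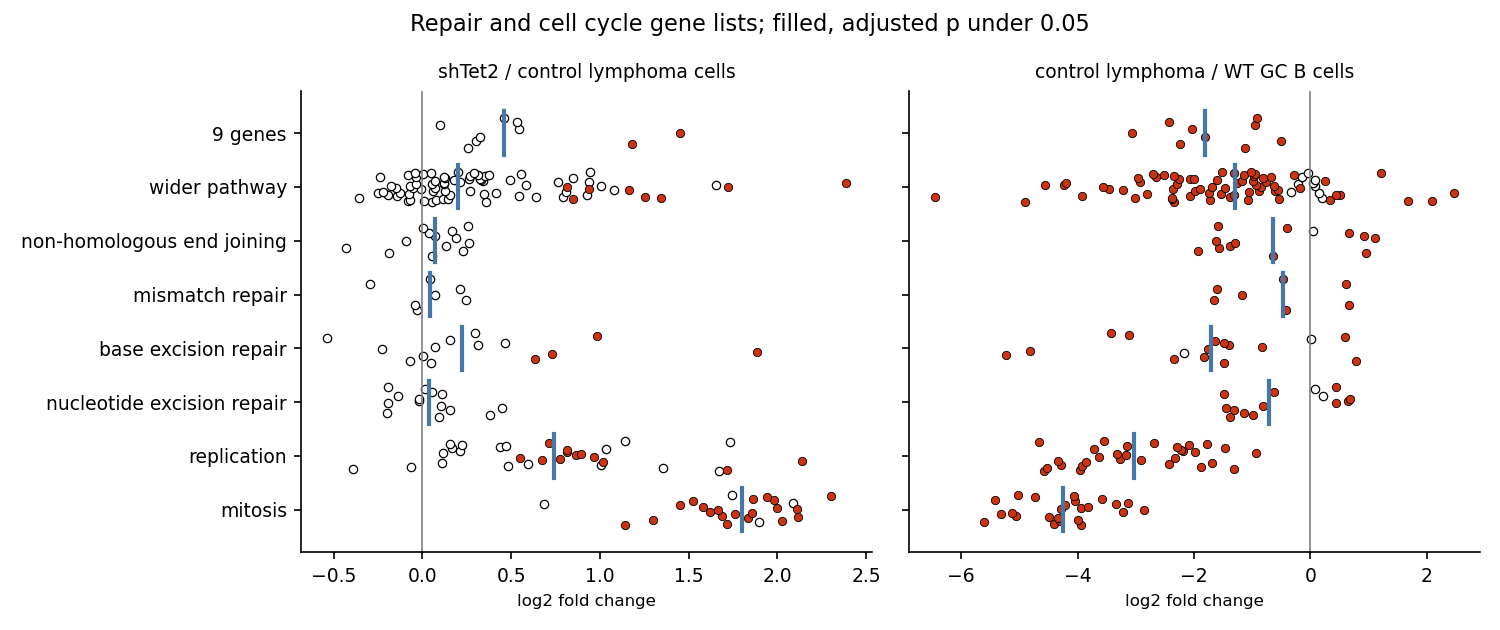
Log2 fold changes of single genes (points; filled, adjusted p under 0.05 by edgeR) in lists of repair and cell cycle genes, with a line at each list's median, for shTet2 against control lymphoma cells and for control lymphoma against WT GC B cells. The medians of the 9 genes, 0.46 and -1.81, lie between those of the wider pathway (0.20 and -1.29) and of the mitosis list (1.80 and -4.25).

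Whether the knock-down in lymphoma cells and the KO in GC B cells differ in effect was tested in 1 model of all 14 libraries. The model takes 1 spread per gene from both cell types, so the deeper GC B-cell libraries help set it. The effect on Fancd2 was larger in the lymphoma cells by 1.44 on the log2 scale (SE 0.27, edgeR adjusted p = 0.00371) and that on Brca1 by 1.03 (SE 0.27, adjusted p = 0.0374). These 2 of 9 genes were called higher, and 0 lower, where 3.39% of 15441 genes were called higher and 1.61% lower. The call of Fancd2 ended without shTet2 replicate 2 (0.93, adjusted p = 0.0633), and that of Brca1 was kept in 10 of 23 alternative fits. It ended without KO replicate 2, 4 or 5, WT replicate 1 or 3, shTet2 replicate 2 or control replicate 2, 3 or 5, at an adjusted p from 0.0532 to 0.356. The other 7 values ran from -0.20 (Palb2, SE 0.25) to 0.47 (Xrcc2, SE 0.21) and did not pass. Of 76 wider pathway genes 10 were called higher and 0 lower, among them Brip1 (1.27, SE 0.20) and Rad54b (2.21, SE 0.37). Of the 24 mitosis genes 23 were called higher, with a median of 1.70. The lymphoma and GC B cells differ in kind and in depth, and the labels name a knock-down in one and a knock-out in the other, so the source of a difference between the effects cannot be told apart.

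Ratios of partner genes within a library do not depend on how libraries are scaled, and they are given per exon length as a description. Fancd2 to Fanci, partners in the clamp, stood at 0.820 to 1.01 in the WT and 0.823 to 0.885 in the KO GC B-cell libraries. In the control lymphoma libraries it was 0.525, 0.291, 0.315, 0.618 and 0.493, and in the shTet2 libraries 0.658 and 1.01. All 5 controls lay below the GC B-cell libraries, and both shTet2 libraries lay above all controls. The control ratios rest on 10 to 51 reads of Fancd2 and 25 to 83 reads of Fanci. The step from 0.618 to 0.658 may therefore lie within counting error. How often other gene pairs separate in this way was not counted. Brca1 to Bard1 stood at 0.936 to 1.33 in GC B cells, 1.08 to 1.42 in the controls, and 1.20 and 1.97 in the shTet2 libraries. Palb2 to Brca2 was 0.778 to 1.01 in GC B cells and 0.335 to 0.960 in all lymphoma libraries.

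The genes most like the 9 over all 14 libraries were sought among 7676 genes outside every list with a mean of at least 10 CPM. By Pearson's r of log2 CPM with the mean z-score of the 9, they were Pif1 (0.994), Incenp, C330027C09Rik, Cenpi and Zwilch (0.993 each). Pif1 encodes a DNA helicase, and Incenp, Cenpi and Zwilch encode parts of the centromere and kinetochore. These r values rest largely on the difference between the GC B-cell and lymphoma tables; after centring within the 4 groups they were 0.814 to 0.917. Centred within the 7 lymphoma libraries they were 0.869 to 0.972, and within the 7 GC B-cell libraries -0.254 to 0.692. Between pairs of the 9 genes, the same centred r had a median of 0.42 over the 7 lymphoma libraries, from -0.86 to 0.96. Over the 7 GC B-cell libraries the median was 0.235, from -0.50 to 0.96. The lymphoma extremes were Fanci with Palb2 (-0.86) and Palb2 with Rad54l (0.96). In control replicate 2, the shallowest library, Fanci, Palb2 and Rad54l rested on 25, 10 and 14 reads. Within each cell type r values of both signs occurred, and the part of counting error in them was not tested. The points share library, depth and scaling, and no p is given.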

How the data were processed

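The labels' protocols name a stranded mRNA kit for the RNA-seq libraries. Whether both cell types were prepared alike was not tested. The structural RNA row Rn7sk averaged 15180 CPM in control lymphoma and 3.79 CPM in WT GC B-cell libraries. STAR 2.3.0e and GRCm38.p3 are listed in the submitters' processing notes. Per the file headers, featureCounts 1.5.1 counted reads over GENCODE vM3 exons with no strand option. The deposited values are the authors' raw counts, in 2 tables (1 per cell type). Libraries were grouped by title. The 9 genes and the lists were chosen with earlier results of these data known.

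Each comparison was fitted to all genes with edgeR 4.0.16 in R 4.3.3 (TMM scaling, filterByExpr, robust quasi-likelihood test, Benjamini-Hochberg adjustment, adjusted p under 0.05); the 9 genes passed the filter in each. The comparison within a cell type used its 7 libraries, the others all 14 with 1 spread per gene shared by both cell types. Printed CPM use 1 TMM scale over 14 libraries, so ratios of means can differ slightly from fitted fold changes. The test was checked on simulated counts. Alternatives were other scalings, filters, DESeq2 1.42.0, limma-voom 3.58.1, structural RNA rows left out, a replicate block and each library left out. Named genes were the 9, up to 3 per direction with the smallest p among called genes of each wider pathway and cell cycle list, the 5 most like genes and exon neighbours; the base excision repair genes, Polm, E2f7 and the markers were named after their values were seen. Promoter letters came from RefSeq. Some genes of the lists are counted but not reported singly here. No pair of replicates was alike within sampling noise (chi-square per degree of freedom at least 12.0).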

Additional observations from a re-analysis of the deposited data

Results flagged for a closer look

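Among 18 groups of 4 or 5 libraries tested for a value far from the others, which chance alone marks in about 1 in 20, 2 stood out. Fanca was at 14.6 CPM in control lymphoma replicate 1, above the 8.77 to 9.79 CPM of the other 4 controls, and Rad54l was at 5.12 CPM in control lymphoma replicate 2, the shallowest library, below the 8.61 to 9.21 CPM of the others. Fanca in control replicate 1 rested on 75 reads and Rad54l in control replicate 2 on 14 reads.

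The edgeR test of the difference between the contrasts called 10 of 76 wider pathway genes and 2 of the 9 higher. For these, the difference between lymphoma libraries labelled shTet2 and control was larger than that between GC B-cell libraries labelled KO and WT. The 11 of them that are reported singly follow. On the log2 scale these were Brip1 at 1.27 (adjusted p = 0.000828), Rad54b at 2.21 (0.00140), Fancd2 at 1.44 (0.00371), Fignl1 at 1.31 (0.00904) and Parpbp at 1.51 (0.0111). Helq followed at 0.74 (0.0160), Chek1 at 1.01 (0.0189), Dna2 at 0.91 (0.0198), Brca1 at 1.03 (0.0374), Bard1 at 0.67 (0.0402) and Polq at 0.66 (0.0463). The GC B-cell libraries held these genes at higher levels than the lymphoma libraries in all 11 cases.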

How the results depend on the processing

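All 9 genes stayed called lower in control lymphoma against WT GC B cells in each fit but the one with upper-quartile scaling, where 8 did. For KO against WT, 0 of the 9 were called, except for 1 (Fanca) with no filter (adjusted p = 0.0220), and 0 to 1 with single libraries left out. For shTet2 against control, where the main fit called 2, limma-voom called 1, 1 model of all 14 libraries 4, the fit without control replicate 2 and structural RNA rows 0 (added after the data were seen), and fits with single libraries left out 0 to 2. For the difference between the effects, limma-voom called 1, no filter 1, the fit without control replicate 2 and structural RNA rows 1, and fits with single libraries left out 0 to 2. The cause was not tested.

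Same-numbered libraries did not deviate together over all genes (r of -0.04 to 0.03), so no pairing by number was seen. A link that touches only some genes would not show in this r. With the replicate number as a block 0 of the 9 were called in the lymphoma cells, 0 in the difference and 0 in the GC B cells. No such fit was possible for control lymphoma against WT GC B cells. The block also turned small values: Fancd2 in KO against WT to 0.08, and in the difference Brca2 to -0.07 and Palb2 to 0.06. In 1 model of all 14 libraries Fancd2 (0.02) and Xrcc2 (0.01) turned in KO against WT. With single libraries left out, KO against WT ranged from -0.09 to 0.02 for Fancd2 and from -0.02 to 0.24 for Fanci, and the difference from -0.24 to 0.14 for Blm, -0.25 to 0.16 for Fanca and -0.04 to 0.24 for Brca2.

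Over all genes, KO against WT called 883, against 1365 with no filter and 570 with the block. The lymphoma comparison called 330, against 593 with DESeq2, 782 with no filter, 840 in 1 model of all libraries, 149 without control replicate 2 and structural RNA rows, 4 with the block and 100 to 2481 with single libraries left out. The difference called 771, against 1198 with DESeq2, 256 with the block and 283 to 2001 with single libraries left out.

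Depth limits the lymphoma values: Fancd2 rested on 10 to 51 reads in the controls. With 2 shTet2 libraries, the size of the spread in that group is poorly known, and both calls depended on single libraries of either group.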

Other observations

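Base excision repair, which removes single damaged bases such as uracils, was the other repair list with calls in the lymphoma comparison. Of 14 genes tested 4 rose in the shTet2 libraries and 0 fell, with a median log2 fold change of 0.23. They were the uracil glycosylase gene Ung (0.99, SE 0.23, 10.1 ± 3.01 against 5.01 ± 0.656 CPM), the glycosylase genes Neil1 (0.73, SE 0.15) and Neil3 (1.89, SE 0.43), and Mbd4 (0.64, SE 0.14), all at an adjusted p under 0.05 by edgeR. Without shTet2 replicate 2, or without control replicate 2, 0 of the 14 were called. In the GC B cells 0 of 15 tested were called by edgeR, with 1 at an unadjusted p under 0.05. Polm, a polymerase gene of non-homologous end joining, was the only call there among the end joining, mismatch, base excision and nucleotide excision repair lists (13, 7, 15 and 14 genes tested), and it fell in the KO cells (-0.50, SE 0.09, 52.5 ± 3.68 against 71.5 ± 5.70 CPM, edgeR adjusted p = 0.00270). Over all 13600 genes tested there, 4.57% were called lower and 1.92% higher, so a single lower call in these lists does not stand out.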
